A study of Mus musculus with 10 samples.

Results

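The circadian clock genes Per1, Per2, Per3, Cry1, Cry2, Clock, Npas2, Dbp, Nr1d1 and Nr1d2 were examined in RNA from the knee cartilage caps of 10 mice. They were taken by symbol as components of the clock, with earlier results of these data known, and all 10 were in the table, among 35705 genes with a value. All 10 were also among the 13841 genes that averaged 1 TPM or more and were tested. The mice were 5 wild-type controls and 5 Mir324-null animals, which lack the microRNA gene Mir324, with 1 untreated animal behind each library. The tissue was the cap of the medial knee, labelled as articular cartilage with chondrocyte as its cell type. The microRNA was not analysed here, and no check of the genotypes rests on it. The caps held other tissue: the haemoglobin gene Hba-a1 was at 41883 to 99094 TPM, while Col2a1, the main collagen of cartilage, was at 33.9 to 143 TPM. The age, sex and strain of the mice, the hour at which they were killed and their light cycle were not given in the sources used here. Levels are in TPM, a share of all transcripts in a library that allows for transcript length, so that levels of different genes can be set side by side. Differences between genotypes are Mir324-null minus wild-type on the log2(TPM + 1) scale, which understates the change of low genes.

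The clock is a feedback loop of transcription that runs in most cells of the body, chondrocytes included. CLOCK, or its relative NPAS2, pairs with BMAL1, the product of Arntl, and switches on the Per, Cry, Nr1d1, Nr1d2 and Dbp genes through E-boxes. PER and CRY proteins return to the nucleus and shut this pair off. The REV-ERB proteins, products of Nr1d1 and Nr1d2, repress Arntl and Npas2, and DBP drives output genes through D-boxes. In peripheral tissues of the mouse, transcripts of Nr1d1, Nr1d2, Dbp and the Per genes peak in the part of the day in which those of Arntl and Npas2 are low, with Cry1 later than the Per genes. The level of 1 such gene in a single sample therefore depends on the hour, and the balance of the opposed genes serves as a reading of phase.

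Promoter windows are shown because several members varied together among the mice, and E-boxes, D-boxes and REV-ERB elements are the sites through which the loop is known to act on its own genes. The windows run from 250 bases before to 50 bases after a RefSeq start (GRCm38.p6), and the members other than Per2 matched, with 12 windows between the 9 of them. Both strands were searched for CACGTG (E-box), CACGTT (an E-box variant), TTATGTAA (D-box), TAGGTCA (core of the REV-ERB and ROR element) and TGACGTCA (cyclic AMP response element), none of which overlapped another here. Capitals mark the matches. Of the 9 members searched, 5 had a match, in the windows that follow.
Per1 promoter, chr11:69098699-69098998, plus strand: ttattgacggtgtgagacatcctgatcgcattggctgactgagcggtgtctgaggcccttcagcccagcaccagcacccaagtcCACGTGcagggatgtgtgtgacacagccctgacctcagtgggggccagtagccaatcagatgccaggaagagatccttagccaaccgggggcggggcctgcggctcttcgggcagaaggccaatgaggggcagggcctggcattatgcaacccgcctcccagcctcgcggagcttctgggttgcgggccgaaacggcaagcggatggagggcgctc
Per3 promoter, chr4:151044616-151044915, minus strand: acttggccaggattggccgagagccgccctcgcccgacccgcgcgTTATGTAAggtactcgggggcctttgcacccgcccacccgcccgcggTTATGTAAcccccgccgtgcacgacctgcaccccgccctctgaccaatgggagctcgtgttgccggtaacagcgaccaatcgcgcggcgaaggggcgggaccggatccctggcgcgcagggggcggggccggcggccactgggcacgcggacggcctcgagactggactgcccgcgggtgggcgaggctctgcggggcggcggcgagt
Cry1 promoter, chr10:85185005-85185304, minus strand: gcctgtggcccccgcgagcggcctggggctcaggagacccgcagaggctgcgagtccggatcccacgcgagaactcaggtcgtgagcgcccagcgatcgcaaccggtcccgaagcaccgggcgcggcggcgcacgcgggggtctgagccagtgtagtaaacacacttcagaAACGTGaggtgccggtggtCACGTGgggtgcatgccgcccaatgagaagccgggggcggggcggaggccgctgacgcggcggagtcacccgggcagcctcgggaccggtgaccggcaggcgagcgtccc
Cry2 promoter, chr2:92434020-92434319, minus strand: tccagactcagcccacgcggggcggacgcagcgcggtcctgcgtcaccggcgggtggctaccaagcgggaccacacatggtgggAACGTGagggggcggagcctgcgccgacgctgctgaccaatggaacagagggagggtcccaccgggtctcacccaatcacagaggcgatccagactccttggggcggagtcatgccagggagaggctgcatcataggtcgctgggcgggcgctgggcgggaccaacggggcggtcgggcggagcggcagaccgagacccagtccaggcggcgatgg
Nr1d1 promoter, chr11:98775328-98775627, minus strand: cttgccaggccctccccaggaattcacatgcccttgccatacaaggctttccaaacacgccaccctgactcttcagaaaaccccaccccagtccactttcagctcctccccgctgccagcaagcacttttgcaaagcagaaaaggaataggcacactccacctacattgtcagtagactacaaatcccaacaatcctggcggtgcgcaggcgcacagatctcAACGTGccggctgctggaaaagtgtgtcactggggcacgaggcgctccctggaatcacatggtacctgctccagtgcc

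The E-box lay in the windows of Per1, at bases 85 to 90 from the 5′ end of the window, and Cry1, at bases 191 to 196. It was found in 7.15% of the 32851 promoter windows in the table. The variant stood on the opposite strand, read there as AACGTG, in Cry1 (bases 172 to 177), Cry2 (85 to 90) and Nr1d1 (223 to 228), and 4.68% of all windows held it. Per3 had 2 D-boxes, at bases 46 to 53 and 93 to 100, where 0.938% of all windows had any. In all, 5 of the 12 member windows (41.7%) held a match to any of the 5 motifs, against 16.1% of all windows. No member window held TAGGTCA or TGACGTCA, found in 2.61% and 1.79% of all windows. These matches are descriptions of the letters and not of binding, and sites outside the windows were not searched.

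Clock transcripts were at low to moderate levels. Nr1d1 had the highest mean, at 14.8 ± 6.88 TPM over the 10 mice (SD), and Npas2 the lowest, at 1.26 ± 0.522 TPM. From high to low the order of means was Nr1d1, Dbp, Nr1d2, Cry1, Cry2, Per1, Clock, Per3, Per2 and Npas2. Dbp exceeded Nr1d2, Per1 exceeded Clock and Per2 exceeded Npas2 in 10 of 10 mice. Nr1d1 exceeded Dbp in only 6 of 10 mice and Clock exceeded Per3 in 7 of 10, so those neighbours were not separated. The remaining neighbours kept their order in 8 or 9 of the 10 mice.

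**Figure D1:**
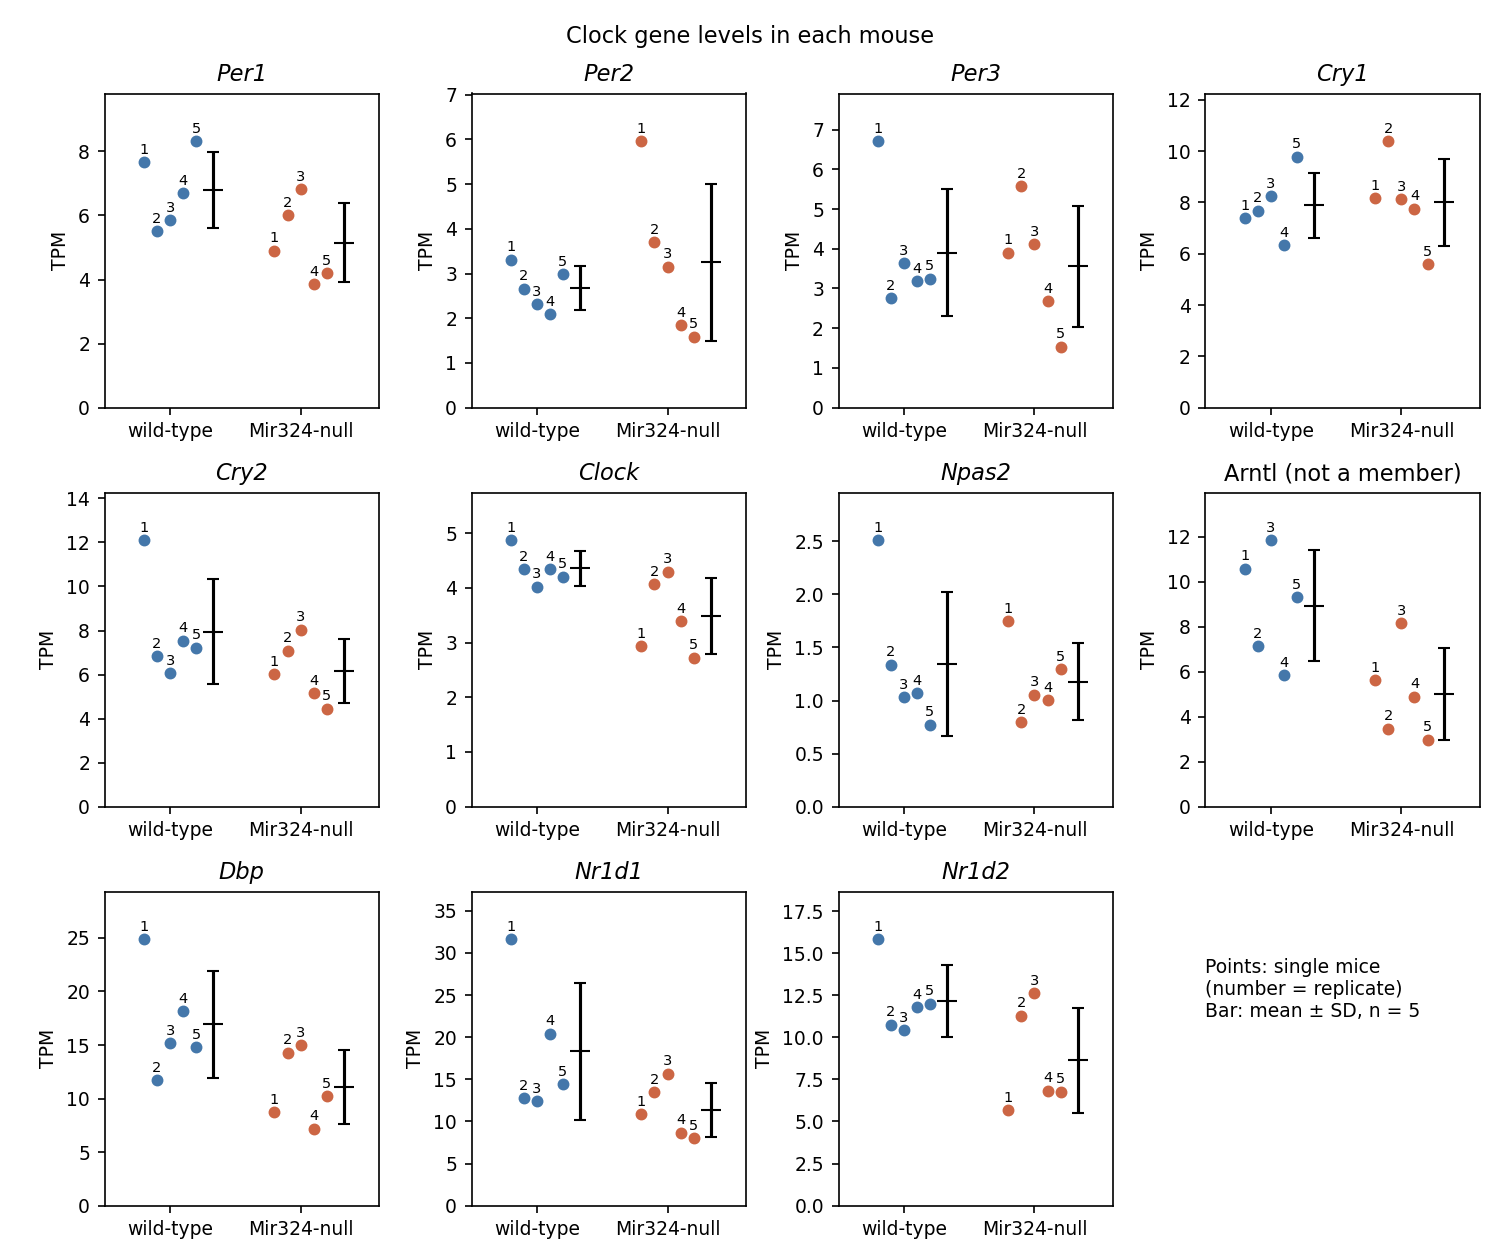
TPM of the 10 clock genes and of Arntl in each mouse, with wild-type in blue and Mir324-null in orange, numbers giving the replicate and bars the mean ± SD of 5 mice. Wild-type replicate 1 is the highest mouse for 7 of the 10 members and Mir324-null replicate 5 the lowest for 6.

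Some mice were high or low for most members at once. Wild-type replicate 1 had the highest value of 7 members, and Mir324-null replicate 5 had the lowest value of 6 and replicate 4 of 2. Mir324-null replicate 3 was among the upper 5 mice for 9 members, so the order did not simply follow genotype. In wild-type replicate 1 the immediate early gene Fos, which cells switch on within minutes of a stimulus, was at 119 TPM, against 6.38 to 9.95 TPM in the other wild-type mice and 4.16 to 7.46 TPM in the Mir324-null mice.

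Among the activators, Clock (ENSMUSG00000029238, chr5:76209868-76304792, minus strand; gene coordinates are those of GRCm38) measured 4.87, 4.34, 4.02, 4.34 and 4.20 TPM in wild-type replicates 1 to 5 and 2.94, 4.07, 4.30, 3.39 and 2.73 TPM in Mir324-null replicates 1 to 5. The wild-type mice lay close together, while Mir324-null replicates 1, 4 and 5 lay below all of them and the other 2 among them. The estimate for Clock was -0.27 (SE 0.133, 95% interval -0.56 to 0.023, exact permutation p = 0.0556), or -0.17 after quantile normalization. Npas2 (ENSMUSG00000026077, chr1:39193731-39363236, plus strand), which can stand in for CLOCK, measured 2.51, 1.34, 1.03, 1.07 and 0.772 TPM in wild-type and 1.75, 0.798, 1.05, 1.001 and 1.29 TPM in Mir324-null mice. Its genotypes overlapped throughout, with wild-type replicate 1 alone above the rest (estimate -0.079, SE 0.205, 95% interval -0.53 to 0.37), and the sign turned to 0.077 without that mouse.

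Their partner Arntl, not a member but needed for the reading of phase, measured 10.6, 7.14, 11.8, 5.85 and 9.32 TPM in wild-type and 5.62, 3.47, 8.16, 4.90 and 2.98 TPM in Mir324-null mice. Mir324-null replicates 1, 2, 4 and 5 were below the lowest wild-type mouse and replicate 3 was among the wild-type values. The estimate was -0.75 (SE 0.241, 95% interval -1.28 to -0.22), with an exact permutation p of 0.0317 and an adjusted p of 0.324 in limma.

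Of the Per repressors, Per1 (ENSMUSG00000020893, chr11:69095217-69109960, plus strand), which also responds quickly to hormones and stress, measured 7.66, 5.51, 5.85, 6.70 and 8.31 TPM in wild-type and 4.90, 6.004, 6.82, 3.85 and 4.20 TPM in Mir324-null mice. The Mir324-null values were lower on average but replicates 2 and 3 lay inside the wild-type range (estimate -0.35, SE 0.163, 95% interval -0.71 to 0.0024, exact permutation p = 0.0794). In wild-type replicate 1, the mouse with the high Fos, Per1 was the second highest of the 10 mice.

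Per2 (ENSMUSG00000055866, chr1:91415982-91459324, minus strand) measured 3.31, 2.67, 2.31, 2.10 and 2.98 TPM in wild-type and 5.96, 3.70, 3.16, 1.85 and 1.59 TPM in Mir324-null mice. The genotypes overlapped, and Mir324-null replicate 1 stood above every other mouse. Of its 5.96 TPM, 2.94 came from Per2-202, a transcript of processed type that was at 0 in the other 9 libraries. The protein-coding transcript Per2-201 was at 3.02 TPM there, inside the range of the other mice. The estimate for Per2 was 0.13 (SE 0.249, 95% interval -0.42 to 0.67) with all transcripts, -0.032 with protein-coding transcripts alone and -0.074 without Mir324-null replicate 1.

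Per3 (ENSMUSG00000028957, chr4:151003652-151044665, minus strand), the member of the family least needed for the rhythm itself, measured 6.70, 2.75, 3.64, 3.18 and 3.25 TPM in wild-type and 3.90, 5.57, 4.12, 2.68 and 1.54 TPM in Mir324-null mice. Wild-type replicate 1 was the highest and Mir324-null replicate 5 the lowest, a 4.35-fold range that was the widest of the 10 members. The estimate of -0.13 (SE 0.266, 95% interval -0.71 to 0.46) turned to 0.050 when wild-type replicate 1 was left out and to 0.068 when Mir324-null replicate 5 was. Per3-204, a transcript of processed type, was at 4.33 TPM in wild-type replicate 1 and 0.215 TPM in Mir324-null replicate 5. For the protein-coding Per3-201, wild-type replicate 3 was the highest (2.18 TPM) and wild-type replicate 2 the lowest (0.757 TPM). Mir324-null replicate 5 had 1.27 TPM of it.

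Of the cryptochromes, Cry1 (ENSMUSG00000020038, chr10:85131700-85185064, minus strand), the repressor that comes on late in the cycle, measured 7.40, 7.68, 8.24, 6.35 and 9.79 TPM in wild-type and 8.16, 10.4, 8.13, 7.75 and 5.60 TPM in Mir324-null mice. The highest and the lowest mouse were both Mir324-null, and the estimate was 0.0084 (SE 0.155, 95% interval -0.33 to 0.35), or -0.081 to 0.12 when single mice were left out. Cry2 (ENSMUSG00000068742, chr2:92403646-92434043, minus strand) measured 12.1, 6.83, 6.05, 7.54 and 7.22 TPM in wild-type and 6.03, 7.08, 8.04, 5.15 and 4.45 TPM in Mir324-null mice. Wild-type replicate 1 stood above the rest, and Mir324-null replicates 1, 4 and 5 were below the wild-type range, replicate 1 only just (estimate -0.31, SE 0.189, 95% interval -0.73 to 0.10, exact permutation p = 0.167), and the estimate was -0.17 without wild-type replicate 1. Cry2-204, of processed type, was at 0.576, 0.675 and 1.05 TPM in wild-type replicates 2, 3 and 5 and 0 in the other mice. The protein-coding Cry2-201 was at 5.77 TPM in Mir324-null replicate 1, inside the wild-type range, and at 5.34 TPM in wild-type replicate 3. With protein-coding transcripts alone the estimate for Cry2 was -0.22.

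The REV-ERB genes and Dbp had the largest estimates among the members. Nr1d1 (ENSMUSG00000020889, chr11:98767932-98775333, minus strand) measured 31.6, 12.7, 12.4, 20.4 and 14.4 TPM in wild-type and 10.9, 13.4, 15.7, 8.66 and 8.02 TPM in Mir324-null mice. Mir324-null replicates 1, 4 and 5 were below every wild-type mouse, and replicates 2 and 3 were among the wild-type values. The means were 18.3 ± 8.10 and 11.3 ± 3.23 TPM (SD, n = 5 each, exact permutation p = 0.0873), an estimate of -0.60 (SE 0.257, 95% interval -1.16 to -0.036) that was -0.39 without wild-type replicate 1.

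Nr1d2 (ENSMUSG00000021775, chr14:18204054-18239127, minus strand), its close relative, measured 15.8, 10.7, 10.4, 11.8 and 12.003 TPM in wild-type and 5.66, 11.3, 12.6, 6.83 and 6.77 TPM in Mir324-null mice. The Mir324-null mice fell into replicates 1, 4 and 5, all below the wild-type range, and replicates 2 and 3, inside it. The means were 12.2 ± 2.15 and 8.63 ± 3.10 TPM (SD, n = 5, exact permutation p = 0.103), an estimate of -0.49 (SE 0.205, 95% interval -0.94 to -0.046).

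Dbp (ENSMUSG00000059824, chr7:45705088-45710203, plus strand), the output factor with one of the strongest rhythms in mouse tissues, measured 24.9, 11.7, 15.2, 18.2 and 14.8 TPM in wild-type and 8.72, 14.3, 15.0, 7.18 and 10.2 TPM in Mir324-null mice. Mir324-null replicates 1, 4 and 5 were again below all wild-type mice, as they were for Per1, Clock, Nr1d1, Nr1d2 and, with all transcripts summed, Cry2. The means were 16.9 ± 4.99 and 11.1 ± 3.44 TPM (SD, n = 5, exact permutation p = 0.0556), an estimate of -0.58 (SE 0.224, 95% interval -1.06 to -0.086).

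No member passed the test across all genes. In limma, with p-values adjusted by Benjamini-Hochberg across the 13841 genes, 0 members had an adjusted p under 0.05, as did 0 of all genes (0%). The smallest adjusted p among the members was that of Dbp, 0.368. At an unadjusted p under 0.05, 3 of 10 members were lower in Mir324-null mice, namely Dbp, Nr1d2 and Nr1d1, where 7.3% of all genes were lower by that rule. The exact permutation test of each of these 3 gave a p above 0.05. The number of members was 0 to 5 when single mice were left out, and 0 when the mouse left out was number 1 or 4 of either genotype. The number over all genes, in either direction, was 1603 with all mice. It was 1143 and 1210 without wild-type replicates 1 and 4, and 1109 and 1162 without Mir324-null replicates 1 and 4. Over every single mouse left out it was 1109 to 1927. By the same rule 0 members were higher, against 4.28% of all genes. The split over all genes, 592 higher and 1011 lower, moved with the scaling, to 876 and 884 with median ratio scaling, 884 and 929 with quantile normalization and 1227 and 591 after rescaling without the haemoglobin genes. Estimates were below 0 for 8 of 10 members, against 60% of all genes, with a member median of -0.29 and a median over all genes of -0.045. The genotypes overlapped for all 10 members, while all Mir324-null mice were below all wild-type mice for 1.06% of genes and above them for 0.881%.

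**Figure D2:**
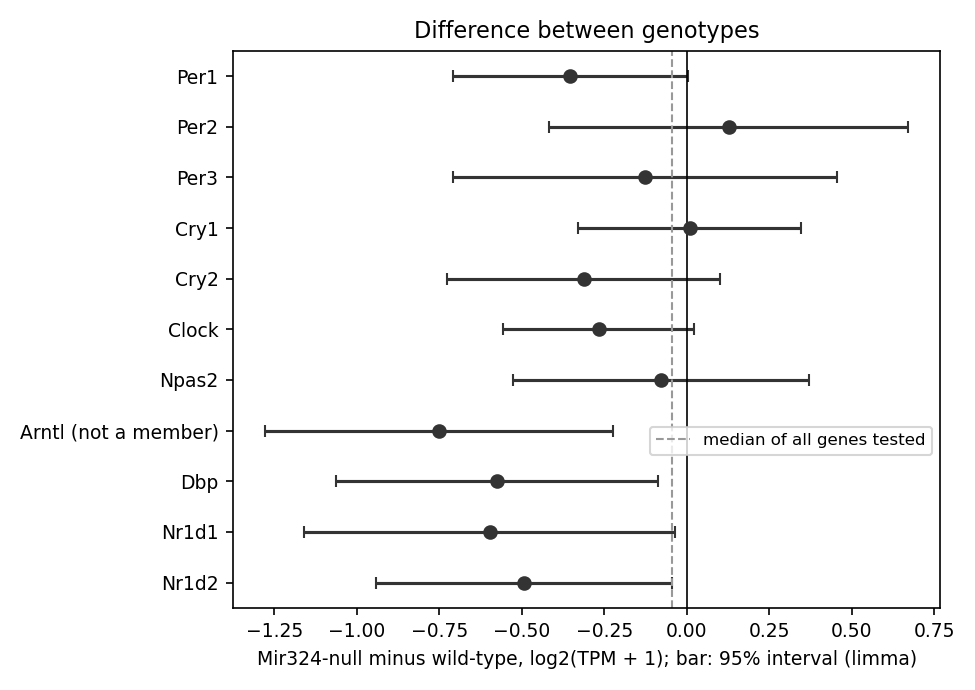
Difference between genotypes (Mir324-null minus wild-type, log2(TPM + 1)) for the 10 members and Arntl, with 95% intervals from limma before any adjustment for multiple tests and the median of all genes as a dashed line. The intervals of Dbp, Nr1d1, Nr1d2 and Arntl lie below 0, and those of the other 7 genes include it.

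Markers of the cell types in the caps also differed between the same mice, though 0 of them passed adjustment. Col2a1 was at 143, 71.0, 66.3, 102 and 74.6 TPM in wild-type and 33.9, 75.0, 92.2, 51.6 and 42.1 TPM in Mir324-null replicates 1 to 5. Wild-type replicate 1 was thus the highest, and Mir324-null replicates 1, 4 and 5 the lowest, for Col2a1 as for Nr1d1, Dbp and, with all transcripts summed, Cry2. Other chondrocyte markers did not all share this order. Wild-type replicate 1 was also the highest for Acan and Comp (287 and 487 TPM). Acan, however, was lower in Mir324-null replicate 3 (65.5 TPM) and wild-type replicate 3 (72.8 TPM) than in Mir324-null replicates 1 and 4 (75.1 and 77.4 TPM). Comp was lowest in wild-type replicate 3 (141 TPM). Of the 8 chondrocyte markers, summed at 301 to 979 and 273 to 537 TPM, 4 of the 6 tested were lower in Mir324-null mice at an unadjusted p under 0.05, and Matn3 was at 0 in 2 libraries. Among all genes tested, 7.3% were lower and 4.28% higher at that threshold. Of the osteoblast and osteocyte markers 7 of 8 were lower by that rule, with a summed level of 3524 to 7961 TPM in wild-type and 1861 to 3929 TPM in Mir324-null mice. All 5 osteoclast markers tested (of 6), 3 of 4 adipocyte markers and 3 of 5 B lineage markers were also lower, and 5 of 6 erythroid markers were higher, with sums of 75149 to 133213 and 107054 to 176269 TPM. None of the 7 neutrophil markers or the 4 fibroblast markers passed in either direction. Skeletal muscle markers, of which 2 of 5 were tested, were at a summed 0.648 to 30.8 TPM and highest in Mir324-null replicate 2. The part of these tissues in the clock gene values was not tested, and in whole tissue fewer cells of a type and less RNA per cell cannot be told apart.

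The arms of the loop were set against each other within each mouse, as a description of their balance. Clock was placed with Arntl and Npas2 as an activator, although it is not among the opposed genes named above. Whether the mice differed in phase was not tested. The mean log2(TPM + 1) of Per1, Per2, Per3, Dbp, Nr1d1 and Nr1d2 was 3.18 ± 0.289 in wild-type and 2.84 ± 0.364 in Mir324-null mice (SD, n = 5). That of Arntl, Npas2 and Clock was 2.29 ± 0.211 and 1.93 ± 0.208 (SD, n = 5). Both arms were thus lower on average in the Mir324-null mice, by 0.34 and 0.37. Each arm mean overlapped between genotypes, at 2.91 to 3.66 against 2.45 to 3.20 and 2.08 to 2.63 against 1.70 to 2.21. The genes of an arm were uneven. In the second the estimates were -0.75 for Arntl, -0.27 for Clock and -0.079 for Npas2. In the first they ran from -0.60 for Nr1d1 to 0.13 for Per2. The contrast of the arms, the first mean minus the second, was 1.03, 0.692, 0.654, 1.08 and 0.963 in wild-type replicates 1 to 5 and 0.818, 1.41, 0.988, 0.592 and 0.757 in Mir324-null replicates 1 to 5.

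The genotypes overlapped on this contrast, and the highest and the lowest mouse were both Mir324-null. Its means were 0.884 ± 0.198 and 0.913 ± 0.312 (SD, n = 5), a difference of 0.029 that was smaller than the spread between mice. When single mice were left out, the difference lay between -0.095 (without Mir324-null replicate 2) and 0.11 (without Mir324-null replicate 4). As a contrast over chosen members it was given no p. With Arntl and Npas2 alone as the second arm the difference was 0.078. With Dbp, Per3, Nr1d1 and Nr1d2 alone as the first arm it was -0.083.

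The ratio of Dbp to Arntl within a mouse needs no scaling between libraries. It was 2.35, 1.64, 1.28, 3.11 and 1.59 in wild-type and 1.55, 4.12, 1.84, 1.47 and 3.43 in Mir324-null replicates 1 to 5. Mir324-null replicates 2 and 5 and wild-type replicate 4 were the highest, and the 10 mice spanned 3.21-fold. The ratio of Nr1d1 to Arntl spanned 3.70-fold, from 1.05 in wild-type replicate 3 to 3.87 in Mir324-null replicate 2. Mir324-null replicate 2 combined the highest contrast and Cry1 level with the second lowest levels of Arntl and Npas2.

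**Figure D3:**
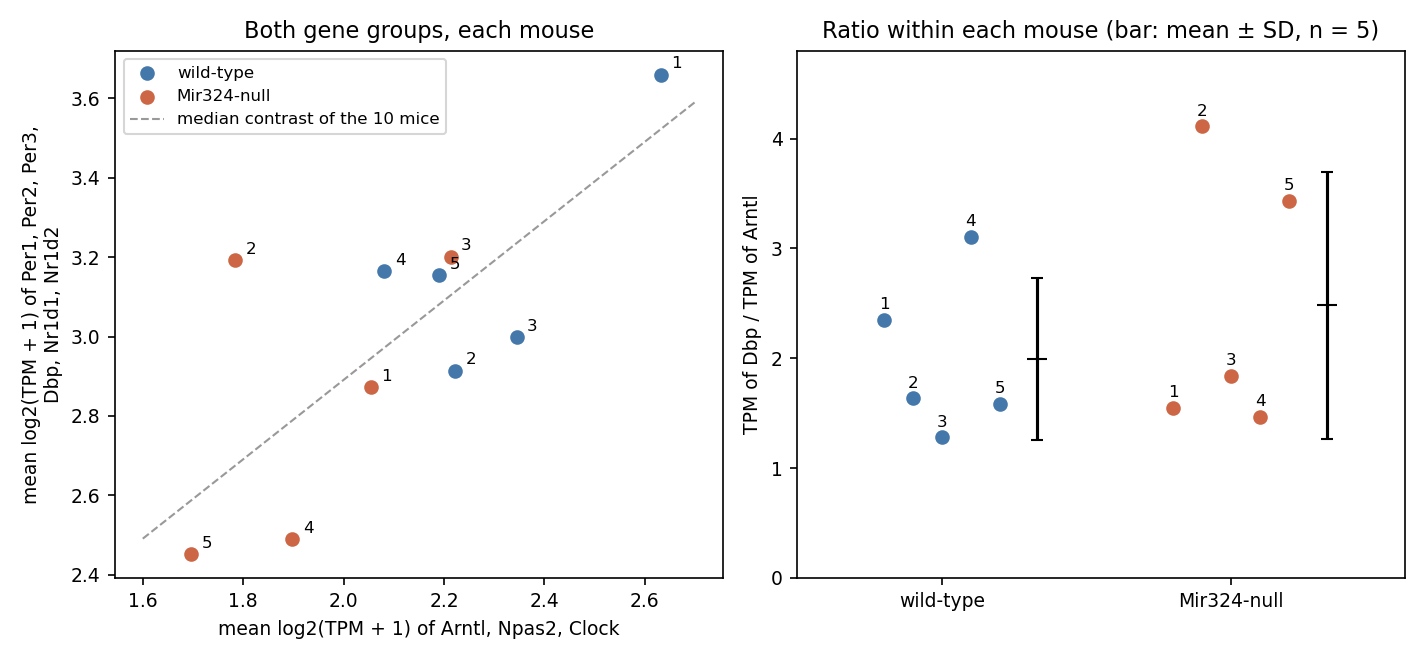
Left, mean log2(TPM + 1) of Per1, Per2, Per3, Dbp, Nr1d1 and Nr1d2 against that of Arntl, Npas2 and Clock, each point a numbered mouse and the dashed line the median contrast of 0.891; right, the ratio of Dbp to Arntl TPM in each mouse with mean ± SD (n = 5). Mice of both genotypes lie on either side of the line, and the ratio overlaps between genotypes, from 1.28 to 3.11 in wild-type and 1.47 to 4.12 in Mir324-null mice.

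The spread of the members within a genotype was compared with that of all genes tested. The within-genotype SD of log2(TPM + 1) was 0.469 for Per3 and 0.467 for Nr1d1, and 89.3% and 89.1% of genes had a lower one. Per2 followed at 0.430 (86.3% of genes lower), Dbp at 0.400 (83.2%) and Nr1d2 at 0.357 (77.6%). Clock varied least, at 0.167, with 21.5% of genes lower, and Cry1 was near the middle at 0.245 (51.5%). Cry2, Npas2 and Per1 lay between, at 0.319, 0.313 and 0.256. The median SD over all genes was 0.240, so that 9 of the 10 members varied more than the middle gene, although no test of these differences was made. These values sum all transcripts of a gene. For Per3 they include Per3-204, of processed type, at 4.33 TPM in wild-type replicate 1 and 0.215 TPM in Mir324-null replicate 5. For Per2 they include Per2-202, at 2.94 TPM in Mir324-null replicate 1 and 0 in the others. With protein-coding transcripts alone, the SE of the genotype difference was 0.171 for Per3 and 0.181 for Per2, against 0.266 and 0.249. The within-genotype SD was not computed for those alone.

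The members were then correlated across the 10 mice on log2(TPM + 1). Of the 45 pairs, 15 had a Pearson r of at least 0.8, where 2.61% of all pairs of genes tested did, and 0 had an r of -0.8 or less, against 0.461% of all pairs. The r was above 0 in 43 pairs, with a median of 0.56. All of the 15 but that of Per3 and Cry2 lay among Nr1d1, Nr1d2, Dbp, Cry2, Clock and Per1, and none held Per2, Cry1 or Npas2. The r of Per3 and Cry2, 0.816, was 0.359 without wild-type replicate 1 and Mir324-null replicate 5, the mice farthest from the median of Per3. With protein-coding transcripts alone it was 0.374. Scaling mattered: 4 pairs reached 0.8 with median ratio scaling (1.21% of all pairs) and 3 with quantile normalization (1.08%), with median r of 0.33 and 0.20. Centring each gene on its genotype means left 5 such pairs, a count for which the share over all pairs was not computed.

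Cry2 and Nr1d1 had the highest r, 0.964 (rho 0.988, permutation p = 1e-05 for each, the smallest the 100000 permutations can give, adjusted over the 45 pairs 0.00045). It was 0.885 once the 2 mice farthest from the median of Cry2 (wild-type 1 and Mir324-null 5) were left out, and 0.96 after quantile normalization. Clock and Nr1d2 followed at 0.948 (rho 0.855, permutation p = 0.00042 and 0.00292, adjusted 0.00473 and 0.0134), or 0.962 without the 2 mice farthest from the median of Clock and 0.74 after quantile normalization. Dbp and Nr1d1 had an r of 0.910 (rho 0.842, permutation p = 0.00036 and 0.00354, adjusted 0.00473 and 0.0145), or 0.820 without the 2 mice farthest from the median of Dbp and 0.89 after quantile normalization. These 3 relations kept their sign under both scalings and within genotypes, where the r of centred values was 0.959, 0.917 and 0.861.

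At the other end, Cry1 and Npas2 had an r of -0.395 (rho -0.636, permutation p = 0.255 and 0.0543, adjusted 0.425 and 0.136), or -0.337 without the 2 mice farthest from the median of Cry1. Per2 and Nr1d2 had an r of -0.0082 (rho 0.273, permutation p = 0.982 and 0.445, adjusted 0.982 and 0.691), which became 0.7003 without Mir324-null replicates 1 and 5 and so rested on those mice. With protein-coding transcripts alone the r of Per2 and Nr1d2 was 0.509. Per1 and Npas2 had an r of 0.019 (rho -0.152, permutation p = 0.960 and 0.682, adjusted 0.982 and 0.877), or 0.165 without the 2 mice farthest from the median of Per1, -0.50 without wild-type replicate 1 and -0.34 after quantile normalization. After quantile normalization Cry1 was opposed to Nr1d1 and Dbp, with r of -0.61 and -0.60, where the deposited values gave 0.064 and 0.054.

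Arntl, which runs opposite to Dbp and the REV-ERB genes through the daily cycle, had an r above 0 with all 10 members over the 10 mice, from 0.157 with Per2 to 0.649 with Clock. Of these 10 relations 0 passed adjustment (the smallest permutation p was 0.0432, adjusted 0.173). Some turned sign: after quantile normalization the r was -0.028 with Per2 and -0.031 with Cry1, without wild-type replicate 1 it was -0.15 with Npas2, and without the 2 mice farthest from the median of the member it was -0.33 with Per3 and -0.14 with Npas2. Centred on genotype means, the median r over the 10 members was 0.355, against 0.553 for the values as they stood. With Dbp the r was 0.544 (rho 0.697, permutation p = 0.104 and 0.0308, adjusted 0.173 and 0.177), or 0.398 without the 2 mice farthest from the median of Dbp, 0.40 after quantile normalization and 0.189 for values centred on genotype means. The libraries share their scaling to a fixed total, and its part in these correlations was not tested beyond the scalings given.

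**Figure D4:**
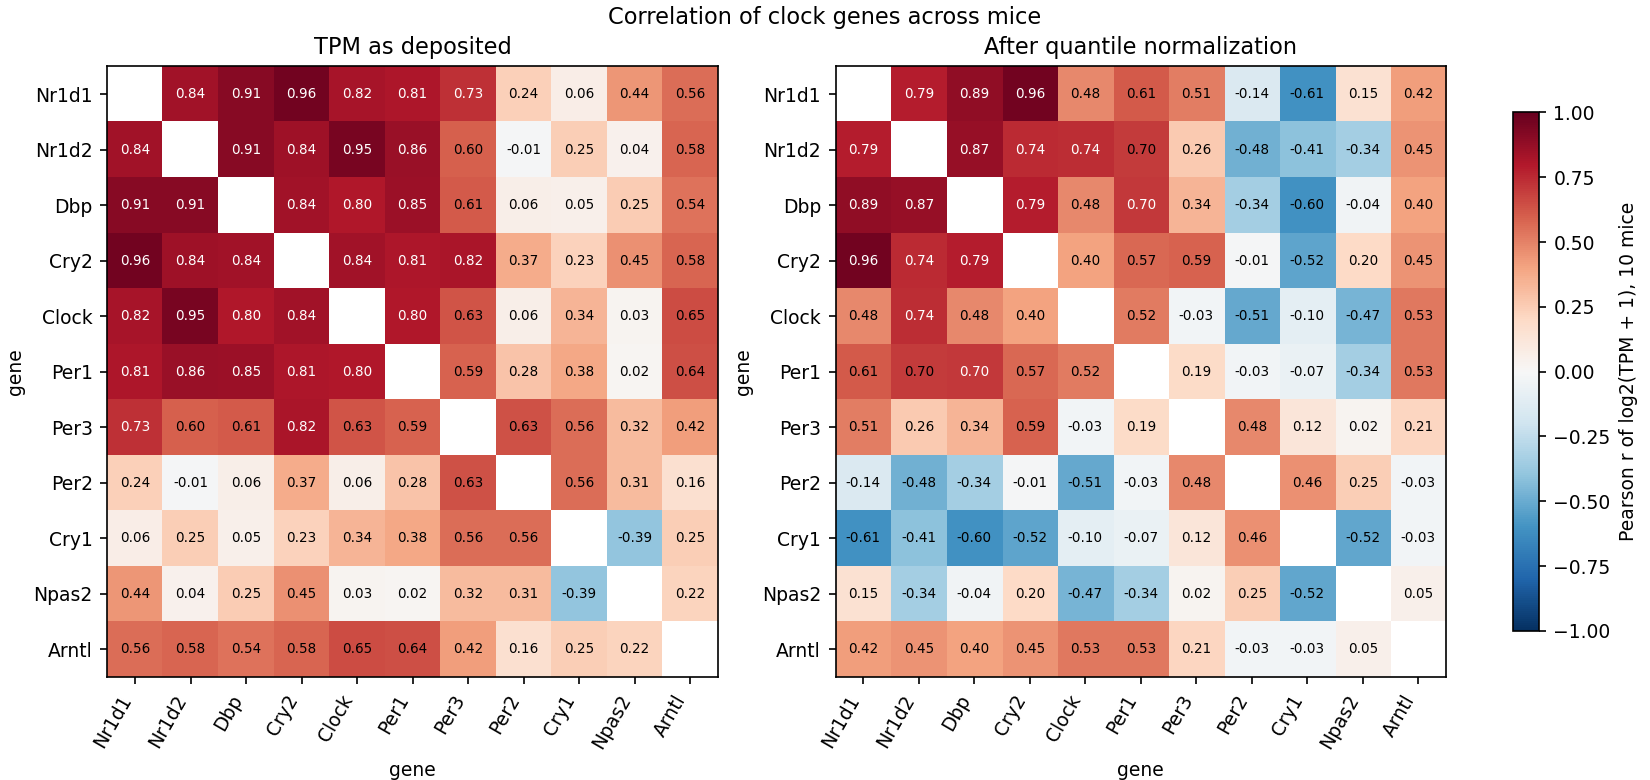
Pearson r of log2(TPM + 1) over the 10 mice between each pair of the 10 members and Arntl, with TPM as deposited (left) and after quantile normalization (right), red for positive and blue for negative. The block of Nr1d1, Nr1d2, Dbp and Cry2 stays red in both panels, from 0.84 to 0.96 on the left and 0.74 to 0.96 on the right, while Cry1 turns blue against them on the right.

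The genes most like Dbp and Npas2 over the 10 mice were sought among all genes tested, by Pearson r. For Dbp they were Tmem42 (r = 0.978), Txnip (0.969), Mrpl54 (0.965), Zfp771 (0.952) and Nudt16l1 (0.948). Nr1d1 ranked 65 and Nr1d2 ranked 72 of 13840 genes in likeness to Dbp, Per1 ranked 333 and Cry2 ranked 413, while Per2 and Cry1 ranked 9573 and 9627. With protein-coding transcripts alone the r with Dbp was 0.418 for Per2, against 0.060 with all transcripts. For Cry1 it was 0.123, against 0.054. For Npas2 they were Fbxo44 (0.943), Brms1l (0.897), Hist1h2br (0.883), Fgd5 (0.870) and Ankrd24 (0.863). Wild-type replicate 1 stood alone above the rest for Npas2. The r of the genes named for Dbp and Npas2 was not recomputed without that mouse or under other scalings. The nearest member to Npas2 was Cry2, at rank 1748 (r = 0.453), which rested on wild-type replicate 1: without that mouse the r was -0.347, and Per2 was the nearest member, at 0.318.

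Further genes of the loop were taken from lists by their known roles. Of 11 core loop partners, 9 were tested, 0 passed adjustment, 2 were lower at an unadjusted p under 0.05 (Arntl, given above, and Bhlhe41) and 0 were higher, with a median of -0.25. Among all genes tested, 7.3% were lower and 4.28% higher by that rule. Bhlhe41, a repressor that competes for E-boxes, had means of 3.87 ± 1.43 and 2.44 ± 0.468 TPM in the wild-type and Mir324-null groups (SD, n = 5, exact permutation p = 0.0794), and Hlf, a relative of Dbp, 2.05 ± 0.634 and 1.44 ± 0.269 TPM (SD, n = 5, exact permutation p = 0.0873). Of 7 kinase and ubiquitin ligase genes that set the stability of PER and CRY, 6 were tested and 1 was higher at an unadjusted p under 0.05, with a median of -0.020. That gene, Btrc, which encodes the subunit that marks PER for destruction, averaged 24.3 ± 4.12 and 30.1 ± 1.71 TPM (SD, n = 5) and was above the wild-type mean in 5 of 5 Mir324-null mice (estimate 0.31, SE 0.114, exact permutation p = 0.0317, limma adjusted p = 0.351). Gsk3b, a kinase of the same list, averaged 15.0 ± 1.54 and 14.1 ± 1.79 TPM (SD, n = 5).

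Of 4 rhythmic output genes, 2 were lower at an unadjusted p under 0.05, as were 7.3% of all genes, and 0 passed adjustment. Nampt, an enzyme of NAD synthesis, averaged 26.5 ± 2.50 and 22.2 ± 1.83 TPM and Tspan4 52.8 ± 8.41 and 42.1 ± 7.36 TPM (SD, n = 5). Of 5 glucocorticoid-responsive genes, included because this hormone sets peripheral clocks and drives Per1, 2 were lower by that rule, Klf9 at 9.20 ± 1.503 and 6.10 ± 1.44 TPM and Sgk1 at 34.8 ± 11.1 and 23.3 ± 2.23 TPM (SD, n = 5), and 0 passed adjustment. Of 6 immediate early genes 0 passed either rule. Atf3, one of them, averaged 6.73 ± 4.28 and 4.19 ± 0.858 TPM (SD, n = 5). Their part in the Per1 values was not tested.

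Some members share sequence with other genes. On opposite strands, exons of Nr1d1 overlap those of Thra by 263 bases, those of Dbp overlap Sphk2 by 539 and those of Cry2 overlap the noncoding gene D930015M05Rik by 295. Thra and Sphk2 averaged 30.5 and 17.0 TPM. Whether the quantification used strand was not stated, so part of the Nr1d1 and Dbp values could belong to these neighbours.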

How the data were processed

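The authors deposited 1 table of TPM values with 116912 versioned Ensembl mouse transcripts and a column for each of the 10 mice, summing to 1000000 TPM in every column. Its values come from kallisto, per the submitters' processing notes, which also name the human build GRCh38, although the identifiers are those of mouse transcripts. The index used is not given in the sources used here. TPM carries no read counts, so depth is unknown and no counting interval, floor or count model was used. Columns were matched to mice by name, and 0 columns belonged to other samples.

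Identifiers were matched without version to GENCODE M21 (GRCm38), which 115440 did. The 1472 others held 0.275% to 0.356% of the TPM of a library. TPM was summed per gene. Those averaging 1 TPM or more were tested on log2(TPM + 1) with limma 3.58.1 in R 4.3.3 (eBayes with trend, two-sided, 10 libraries, no covariate), with Benjamini-Hochberg adjustment over all genes tested. Single genes also had a two-sided exact permutation test over all 252 splits into 5 and 5, whose smallest p is 0.00794. Correlations had 100000 permutations. These steps used Python 3.11.15, numpy 2.4.6, pandas 2.3.3, scipy 1.17.1 and matplotlib 3.10.9, and were tested on simulated data. Alternatives were other pseudocounts (0.1 and 0.5), filters, scalings, eBayes without trend, a replicate block and leaving out each mouse. The members and lists were chosen with earlier results of these data known. The genes named were the 10 members, Arntl, the 2 genes with the smallest unadjusted p of each other clock list, and the 5 genes most like Dbp and Npas2. Restricting a gene to its protein-coding transcripts was chosen after seeing the data. Promoter windows are those of RefSeq (GRCm38.p6).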

Additional observations from a re-analysis of the deposited data

How the results depend on the processing

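No member had an adjusted p under 0.05 in any alternative, where the smallest was 0.198 (Nr1d2). The number of all genes at an adjusted p under 0.05 was 0 in every alternative with all 10 mice and 0 to 1 when a mouse was left out, with 1 without wild-type replicate 3 or 4 or Mir324-null replicate 1. The number of members at an unadjusted p under 0.05, 3 as reported, was 5 after median ratio scaling, 5 with eBayes without trend, 1 after rescaling without the haemoglobin genes and 0 with the replicate block, and 0 to 5 when a mouse was left out (0 without wild-type replicate 1 or 4 or Mir324-null replicate 1 or 4, 1 without Mir324-null replicate 5, and 5 without Mir324-null replicate 2 or 3). The count over all genes in either direction moved too, from 1603 of 13841 as reported. It was 1760 of 13820 after median ratio scaling and 1584 of 13841 with eBayes without trend. Rescaling without the haemoglobin genes gave 1818 of 14216 and the replicate block 1168 of 13841. With a mouse left out it was 1109 (without Mir324-null replicate 1) to 1927 (without Mir324-null replicate 3). Same-numbered mice were not alike across genes: their deviations from their group means correlated at -0.14 to 0.056, and 0 of 5 correlated best with their own number. A pairing that touched only a small part of the genes could be missed by this comparison. Signs turned for Per2 (-0.032 with protein-coding transcripts; -0.074 to 0.28 when a mouse was left out), Per3 (-0.28 to 0.068), Cry1 (-0.038 with protein-coding transcripts; -0.081 to 0.12) and Npas2 (0.033 after quantile normalization; -0.17 to 0.077). Those of the other 6 members and Arntl did not turn in any alternative. The number of pairs with an r of at least 0.8, 15 as reported, was 4 after median ratio scaling, 3 after quantile normalization, 9 after rescaling without the haemoglobin genes, 9 with protein-coding transcripts and 5 with values centred on genotype. Only for the values as reported and the first of these, median ratio scaling and quantile normalization, was the share over all pairs computed. The contrast of the arms moved by less than the spread between mice in all 18 alternatives. With Clock, Npas2, Per2 and Per3 under a mean of 5 TPM, the stricter filter gave no value for them. The cause of these shifts was not tested. Read depth is unknown, which limits Npas2 and the single transcripts most.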

Other observations

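Several members were carried by more than 1 transcript, and the division between them was uneven. Per1 was divided among Per1-201 (35.4% of its mean TPM), Per1-203 (33.2%) and Per1-206 (21.7%), and Per1-203 was under 0.1 TPM in wild-type replicates 3 and 4 and Mir324-null replicates 2 and 4 and reached 5.18 TPM in Mir324-null replicate 3. Clock was divided between Clock-201 (48.2%) and Clock-205 (47.6%), both protein-coding. For Per3, Per3-204, a transcript of processed type, held 50.02% and the protein-coding Per3-201 held 43.2%. In wild-type replicate 1, where Per3 was highest, Per3-204 was at 4.33 TPM and Per3-201 at 2.11 TPM, the latter below the 2.18 TPM of wild-type replicate 3. Dbp held 21.3% of its mean TPM in the retained-intron transcript Dbp-202, at 6.42 TPM in wild-type replicate 1 and 1.11 to 4.69 TPM in the other mice. Nr1d1, Cry1 and Cry2 were nearly all from a single protein-coding transcript each (97.5%, 96.1% and 93.7%).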
